A study of Mus musculus with 16 samples.

Results

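Expression of 39 genes of DNA replication and cell division was followed in 16 RNA-seq libraries of mouse oligodendrocyte precursor cells (OPCs) that were derived from neural stem cells. The 39 genes were a fixed list of symbols, chosen with earlier results of these data known. They divide into 14 replication genes, 3 regulators of entry into S phase (E2f1, Ccne1 and Ccne2) and 22 mitotic genes, and they were matched to Ensembl mouse identifiers among the 55335 genes in the files. All 39 passed the filter on low counts that left 19764 genes for testing, with raw counts of 98 to 10193 in a single library. Poly(A)-selected total RNA came from cells in monolayer on day 4 after seeding, on a mixed C57BL6J/129svEmx background. The 4 groups had 4 libraries each: OPCs labelled RXRgKO (RXRg-/-) with thyroid hormone (T3) for 24 h, OPCs labelled WT (RXRg+/+) with T3 for 24 h, untreated RXRgKO-labelled OPCs, and untreated WT-labelled OPCs. RXRg is retinoid X receptor gamma, a nuclear receptor that can pair with the T3 receptors. The labels state neither the removed part of the gene nor whether the replicates were separate cultures. Each p-value from the fit of all 16 libraries reflects the spread among libraries within groups, estimated over the 4 groups together, and nothing wider.

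DNA replication starts from origins that are licensed in G1, when Cdc6 and Cdt1 load the Mcm2 to Mcm7 helicase ring. Cdc45 and the GINS complex then turn the ring into an active helicase, Pcna clamps the polymerases to the template, and ribonucleotide reductase (Rrm1, Rrm2) and thymidylate synthase (Tyms) supply nucleotides. Mitotic genes act later. Cyclins A and B with Cdk1, Plk1 and the Aurora kinases drive entry into and progress through mitosis, the checkpoint proteins Bub1 and Bub1b watch kinetochore attachment, and Cdc20 and Ube2c work with the anaphase-promoting complex to end mitosis. OPCs divide as precursors and leave the cell cycle when they differentiate, and T3 is a classical signal for that exit in cultured rodent OPCs.

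The mitotic genes and the replication genes differed in the letters of their promoters as well as in their values below, and the promoters of 8 members are shown for that reason. Each window runs from 120 bases before to 50 bases after the annotated start, 5′ to 3′ along the gene, from RefSeq on GRCm38.p6. The genes shown are the mitotic genes with the smallest adjusted p-values between the labels and 3 replication genes with an E2F core. Capitals mark matches, on either strand, to the cell cycle genes homology region (CHR, spelled TTTGAA and, as the other form, TTCGAA) in the mitotic genes and to an E2F core in the replication genes. The core was searched in any of 4 spellings, with TTGGCGC being the first of them, followed by TTCCCGC as the second, then by TTGCCGC as the next, and finally by TTCGCGC as the last.
Cenpf, chr1:189688037-189688206, minus strand: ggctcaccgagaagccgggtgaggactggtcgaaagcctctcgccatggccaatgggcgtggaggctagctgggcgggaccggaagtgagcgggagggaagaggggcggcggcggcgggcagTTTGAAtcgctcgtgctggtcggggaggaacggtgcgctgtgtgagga
Cdc20, chr4:118437294-118437463, minus strand: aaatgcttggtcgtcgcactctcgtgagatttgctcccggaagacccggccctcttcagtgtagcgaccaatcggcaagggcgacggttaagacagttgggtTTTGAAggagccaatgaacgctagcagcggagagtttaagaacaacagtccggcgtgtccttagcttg
Ube2c, chr2:164769809-164769978, plus strand: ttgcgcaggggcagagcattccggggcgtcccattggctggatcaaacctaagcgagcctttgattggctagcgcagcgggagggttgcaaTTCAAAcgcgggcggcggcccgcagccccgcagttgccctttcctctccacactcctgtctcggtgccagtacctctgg
Plk1, chr7:122159315-122159484, plus strand: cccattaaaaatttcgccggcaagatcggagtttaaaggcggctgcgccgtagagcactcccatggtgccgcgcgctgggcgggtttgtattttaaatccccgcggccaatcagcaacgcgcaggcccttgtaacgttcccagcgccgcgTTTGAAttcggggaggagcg
Cenpe, chr3:135212443-135212612, plus strand: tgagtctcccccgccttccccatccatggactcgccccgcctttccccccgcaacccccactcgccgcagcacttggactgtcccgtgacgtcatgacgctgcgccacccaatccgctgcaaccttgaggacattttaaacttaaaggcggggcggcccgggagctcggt
Mcm3, chr1:20820263-20820432, minus strand: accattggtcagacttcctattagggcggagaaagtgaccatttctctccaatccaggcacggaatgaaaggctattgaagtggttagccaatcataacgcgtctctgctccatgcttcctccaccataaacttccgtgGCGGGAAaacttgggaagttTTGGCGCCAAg
Mcm6, chr1:128359656-128359825, minus strand: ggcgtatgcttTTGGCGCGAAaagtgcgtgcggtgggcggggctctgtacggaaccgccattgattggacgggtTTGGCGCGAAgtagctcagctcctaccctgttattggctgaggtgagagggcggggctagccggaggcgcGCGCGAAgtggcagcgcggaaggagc
Rrm1, chr7:102441575-102441744, plus strand: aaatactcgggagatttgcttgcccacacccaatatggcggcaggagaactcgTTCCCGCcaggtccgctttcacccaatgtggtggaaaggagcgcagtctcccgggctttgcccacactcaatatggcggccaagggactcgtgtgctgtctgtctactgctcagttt

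RefSeq windows of 300 bases (250 before to 50 after the start) were held for 31 of the 39 members. The CHR was found in 14 of 17 mitotic windows (82.4%), in 3 of 12 replication windows (25%) and in 19.4% of the 27025 promoters in the table. The E2F core was found in 3 of 17 mitotic windows (17.6%), in 8 of 12 replication windows (66.7%) and in 9.72% of all promoters. CCAAT boxes were in 16 of 17 mitotic windows (94.1%), 9 of 12 replication windows (75%) and 37.9% of all promoters. Cenpe, Ccnb1 and Birc5 held no CHR in their windows although they belonged to the mitotic genes. TTCGAA reads the same on both strands and was then counted on each, E2F cores can overlap each other, and the matches describe letters rather than bound sites.

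**Figure D1:**
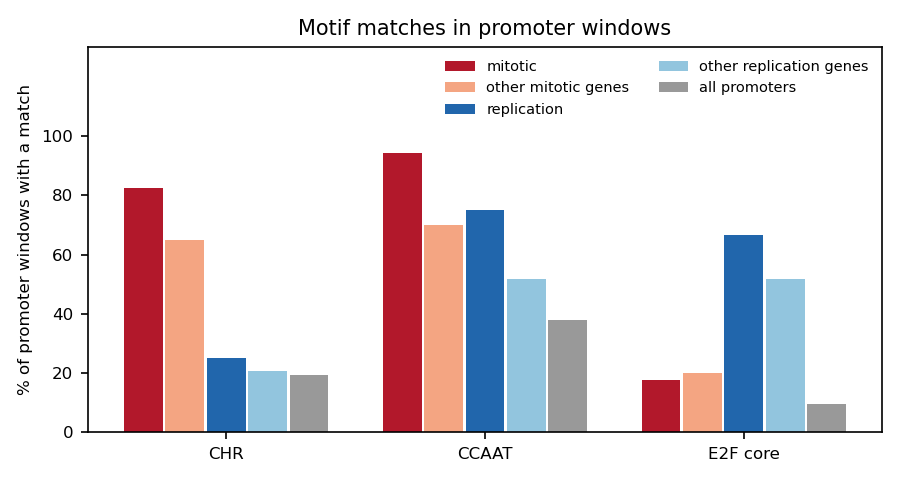
Bars give the percent of promoter windows (y axis) that hold each motif (x axis), for the mitotic and replication members, 2 wider lists of mitotic and replication genes, and all 27025 promoters. The CHR bar is highest for mitotic members (82.4%) and the E2F core bar for replication members (66.7%).

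Totals ran from 18262279 to 42588442 reads per library, of which 22.4% to 46.7% were counted in genes. Rxrg, the gene named by the genotype, went against the labels: it had 4.27 to 5.46 CPM in T3-treated libraries labelled RXRgKO, against 0.371 to 0.960 CPM in T3-treated libraries labelled WT, and 3.77 to 4.83 CPM in untreated libraries labelled RXRgKO, against 1.137 to 1.79 CPM in untreated libraries labelled WT. CPM are counts scaled by effective (TMM) library size. The genotype names below are therefore those of the labels. The libraries also fell into sets within each label, which come from the data and not from the labels. Replicate 1 of both WT groups stood apart from WT replicates 2 to 4, and RXRgKO untreated replicates 1 and 3 with T3 replicates 1 and 2, which lacked Xist RNA (1.39 to 3.75 CPM), stood apart from the other 4, which had it (543 to 723 CPM). The chi-square per gene was 1.503 to 2.12 for the 10 pairs of libraries within a set and 4.94 to 9.62 for the 14 pairs between sets of a group. The fit of all 16 libraries treats libraries of a set as independent, so its p-values hold only as far as that does. Each count that leads a comparison is given below with and without these sets. The share of all genes called is given for the fit of all 16 libraries, and for other fits only where stated. In such bulk RNA, fewer cells of a type and less RNA per cell cannot be told apart.

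All 39 genes were well expressed. Per kilobase of exon in untreated WT libraries, Top2a, which untangles DNA strands, had the highest level (31.6 CPM per kb), followed by Pcna (30.7 CPM per kb), Rrm2 (28.9 CPM per kb) and Cdc20 (26.7 CPM per kb). The licensing factor Cdc6 (2.14 CPM per kb) and the transcription factor E2f1 (2.34 CPM per kb) had the lowest. The mean log2 CPM over the 22 mitotic genes minus that over the 14 replication genes gave each library 1 value. It was -0.27, -0.28, -0.52 and -0.56 in T3-treated RXRgKO libraries, against 0.19, 0.49, 0.43 and 0.39 in T3-treated WT libraries. In untreated libraries it was -0.20, 0.06, -0.14 and -0.01 for RXRgKO, against 0.28, 0.35, 0.39 and 0.37 for WT. No RXRgKO library reached the lowest WT library with or without T3, so the balance between both programmes was lower on the mitotic side in all 8 RXRgKO libraries. The 14 replication genes alone gave overlapping values: their mean log2 CPM ran from 4.54 to 5.22 in T3-treated RXRgKO libraries and from 4.90 to 5.47 in T3-treated WT libraries, and from 4.91 to 5.44 in untreated RXRgKO libraries and from 5.15 to 5.48 in untreated WT libraries.

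**Figure D2:**
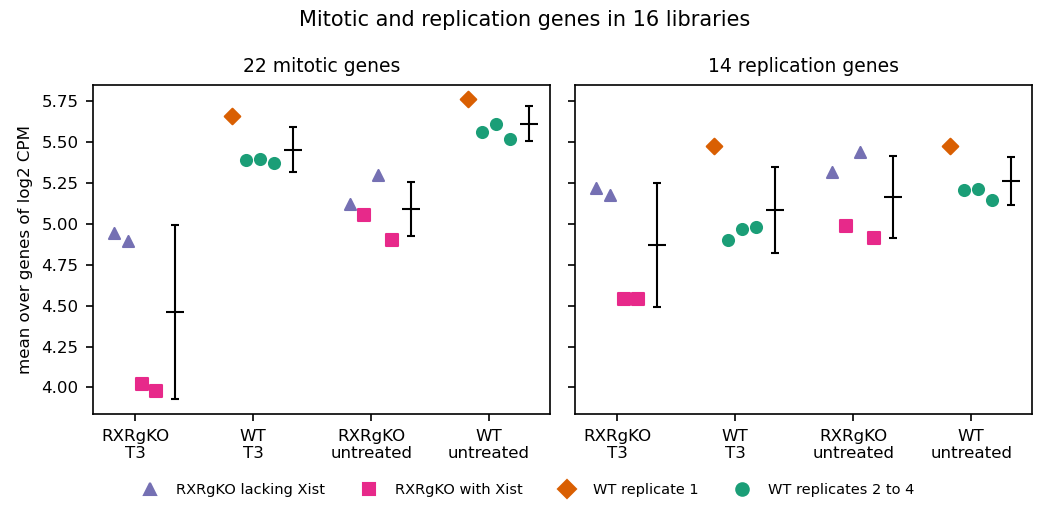
Points are the 16 libraries, by group (x axis), with the mean log2 CPM (y axis) over the 22 mitotic genes (left) and the 14 replication genes (right); black bars give the mean ± SD of 4 libraries and symbols mark the library sets. Mitotic means of RXRgKO libraries (3.98 to 4.94 with T3) lie below those of WT (5.37 to 5.66 with T3), while replication means overlap.

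The comparison of RXRgKO with WT under T3 asked how the labels differ in treated OPCs. Mitotic genes were lower in RXRgKO: 18 of the 22 fell, none rose, and the median of the 22 was a log2 fold change of -0.97, or 1.95-fold lower, beside 0.02 over all genes tested. None of the 14 replication genes or the 3 S-phase regulators passed the test, with 2 replication genes at an unadjusted p under 0.05 and a replication median of -0.19. Across all 19764 genes 14.9% were called (edgeR quasi-likelihood test at 0.05 after Benjamini-Hochberg correction), 8.1% higher and 6.8% lower. The same 18 mitotic genes had all 4 RXRgKO libraries below all 4 WT libraries, which was so for 8.91% of all genes tested. DESeq2 and limma voom called 20 members each, all lower and all mitotic.

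Cenpe and Cenpf, both kinetochore genes, had the smallest adjusted p-values of the 39. Cenpe, a motor that moves chromosomes to the spindle equator, had 20.4, 21.9, 18.2 and 16.5 CPM in T3-treated RXRgKO libraries, against 62.6, 41.9, 39.9 and 36.0 CPM in T3-treated WT libraries. The groups did not overlap, and WT replicate 1 was well above the other WT libraries. The difference was 2.35-fold (log2 fold change -1.23, SE 0.17, adjusted p = 0.000102, edgeR). Cenpf, a large kinetochore protein, had 35.6, 38.3, 28.5 and 28.7 CPM in RXRgKO with T3, against 83.6, 64.0, 62.2 and 56.5 CPM in WT with T3. All RXRgKO libraries lay below the lowest WT library, and Cenpf was 2.03-fold lower (log2 fold change -1.02, SE 0.15, adjusted p = 0.000189, edgeR). Cenpa, the histone H3 variant of centromeres, also fell (log2 fold change -1.16, SE 0.31, adjusted p = 0.0174, edgeR). Its RXRgKO values split into 35.3 and 37.2 CPM in replicates 1 and 2 and 14.1 and 13.9 CPM in replicates 3 and 4, against 37.8, 61.0, 62.5 and 62.7 CPM in WT.

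Ube2c and Cdc20 act in mitotic exit, and both fell. Ube2c, the ubiquitin-conjugating enzyme of the anaphase-promoting complex, had 20.93, 20.9996, 10.43 and 10.98 CPM in T3-treated RXRgKO libraries, against 40.4, 36.9, 39.5 and 35.7 CPM in T3-treated WT libraries. The WT libraries lay close together and the RXRgKO libraries formed pairs well below them. Ube2c was 2.42-fold lower (log2 fold change -1.28, SE 0.20, adjusted p = 0.000328, edgeR). Cdc20, the activator of that complex, had 28.6, 24.4, 14.8 and 14.1 CPM in RXRgKO with T3, against 45.2, 44.2, 47.3 and 49.0 CPM in WT with T3. No values overlapped, with a log2 fold change of -1.19 (SE 0.19, adjusted p = 0.000328, edgeR). Bub1b, the checkpoint protein that restrains Cdc20, had a log2 fold change of -0.88 (SE 0.15, adjusted p = 0.000669, edgeR), whereas its relative Bub1, at a log2 fold change of -0.56 (SE 0.30, adjusted p = 0.26, edgeR), did not pass the test.

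Plk1 had the largest log2 fold change of the 39 in this comparison. Plk1, a kinase needed from mitotic entry to division, had 8.36, 8.53, 5.75 and 5.59 CPM in T3-treated RXRgKO libraries, against 24.84, 14.98, 14.42 and 14.18 CPM in T3-treated WT libraries. The RXRgKO values were far below the lowest WT value, and WT replicate 1 was again high. The log2 fold change was -1.29 (SE 0.21, adjusted p = 0.000421, edgeR). Tpx2, which activates Aurora A on the spindle, and Aurka, Aurora A itself, changed by -0.997 (SE 0.19, adjusted p = 0.00139, edgeR) and -0.97 (SE 0.20, adjusted p = 0.00306, edgeR) on the log2 scale. Foxm1, a transcription factor for mitotic genes, changed by -0.97 (SE 0.21, adjusted p = 0.00348, edgeR). Cdk1, the kinase partner of the B cyclins, was at -0.62 (SE 0.31, adjusted p = 0.215, edgeR) and Aurkb at -0.66 (SE 0.23, adjusted p = 0.0676, edgeR), and neither was called.

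Mki67, the proliferation antigen that coats mitotic chromosomes, had 82.6, 83.7, 60.3 and 58.9 CPM in T3-treated RXRgKO libraries, against 226, 139, 122 and 114 CPM in T3-treated WT libraries. Every RXRgKO value lay below every WT value. Mki67 was 2.11-fold lower (log2 fold change -1.08, SE 0.21, adjusted p = 0.00211, edgeR). Ccnb1 (cyclin B1) had 22.7, 21.5, 7.36 and 8.57 CPM in RXRgKO with T3, against 28.9, 27.9, 29.6 and 33.2 CPM in WT with T3. The gap to WT was small for RXRgKO replicates 1 and 2 and large for replicates 3 and 4. Its log2 fold change was -1.001 (SE 0.31, adjusted p = 0.0363, edgeR). Of the other cyclins, Ccna2 fell by 0.86 (SE 0.21, adjusted p = 0.0106, edgeR) while Ccnb2 at -0.82 (SE 0.27, adjusted p = 0.0511, edgeR) was just short of the threshold. The remaining called genes were the spindle and cytokinesis motors Kif20a (-0.89, SE 0.21, adjusted p = 0.00788), Kif23 (-0.73, SE 0.20, adjusted p = 0.0206) and Kif11 (-0.78, SE 0.24, adjusted p = 0.039), Birc5, a chromosomal passenger protein (-0.96, SE 0.27, adjusted p = 0.0227), and Top2a (-0.70, SE 0.22, adjusted p = 0.043), all as log2 fold changes from edgeR.

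Replication genes showed no such separation. Pcna had 81.2, 79.4, 41.4 and 40.1 CPM in T3-treated RXRgKO libraries, against 50.5, 77.5, 83.9 and 74.7 CPM in T3-treated WT libraries. The groups overlapped, since RXRgKO replicates 1 and 2 were within the WT range and replicates 3 and 4 below it. The log2 fold change of Pcna was -0.25 (SE 0.25, adjusted p = 0.615, edgeR). Mcm2 had 33.8, 33.6, 30.5 and 29.0 CPM in RXRgKO with T3, against 57.9, 29.5, 26.5 and 26.8 CPM in WT with T3. Here WT replicate 1 alone was above RXRgKO and the other 3 WT libraries were within or under the RXRgKO range. Mcm2 had a log2 fold change of -0.15 (SE 0.22, adjusted p = 0.742, edgeR). The 14 replication genes ran from -0.47 for Mcm5 to -0.07 for Gins2. E2f1 was at 0.07 (SE 0.19, adjusted p = 0.89, edgeR) and Ccne1, the cyclin of S-phase entry, at -0.27 (SE 0.14, adjusted p = 0.266, edgeR).

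**Figure D3:**
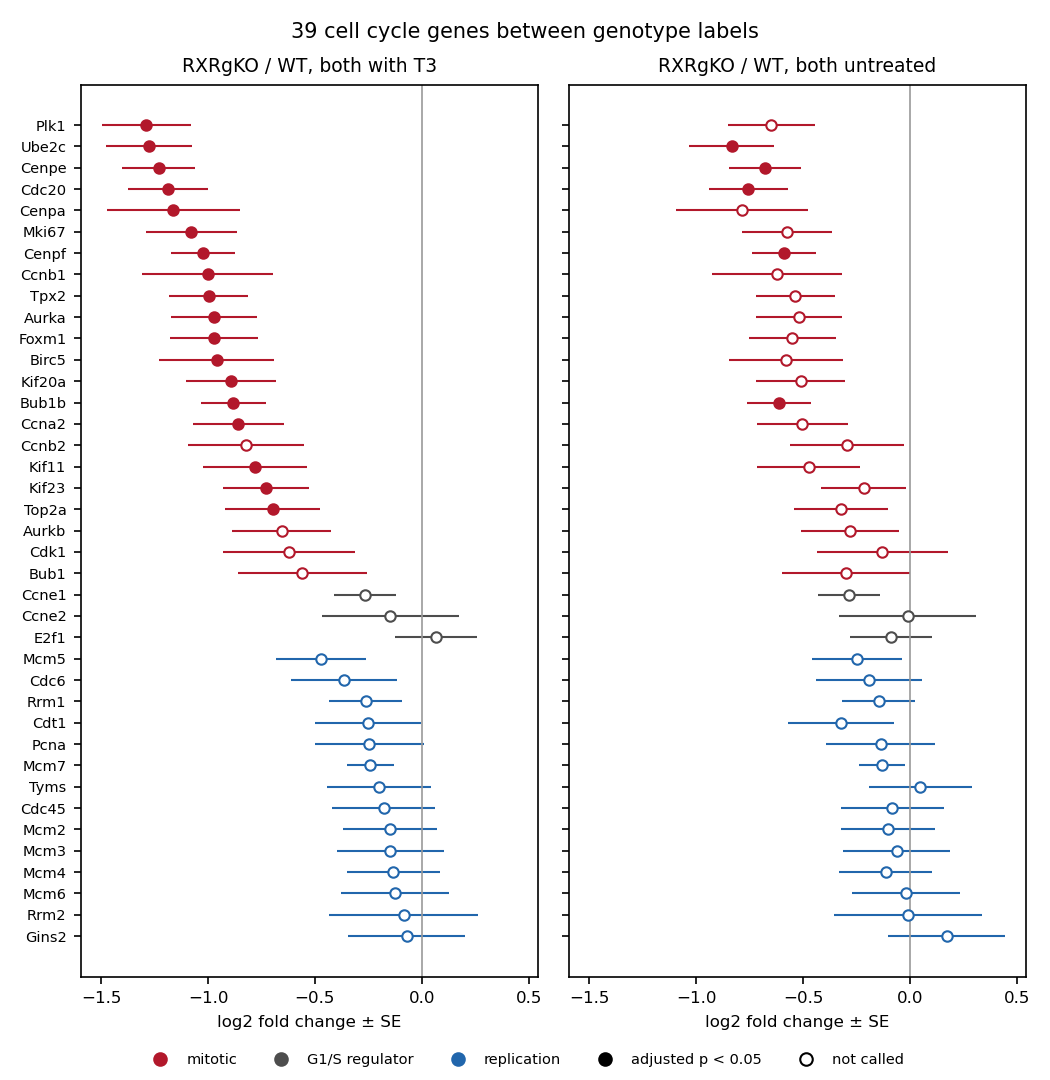
Log2 fold change ± SE (x axis, RXRgKO over WT) of each of the 39 genes (y axis) with T3 (left) and untreated (right), from edgeR; filled points passed an adjusted p under 0.05. With T3, 18 filled mitotic genes lie between -1.29 and -0.70 and no replication gene is filled, and 5 mitotic genes are filled without T3.

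The count under T3 depended on the library sets. Without the RXRgKO libraries that had Xist, 16 members were called lower, all mitotic, and Rrm2 higher. Without those that lacked it, 32 were lower, 8 of them replication genes. With library set as a term, 32 were called lower as well, 8 of them replication genes. That fit also called far more of all genes tested than the 14.9% of the fit without the term. The mitotic median was -0.61 without the RXRgKO libraries that had Xist and -1.502 without those that lacked it, and the replication median was -0.022 and -0.65 in the same order. Marker RNAs of cell types also differed between these sets. The 8 OPC markers summed to 2291 and 2231 CPM in T3-treated RXRgKO replicates 1 and 2, which lacked Xist, and to 4038 and 4339 CPM in replicates 3 and 4, which had it. The 8 astrocyte markers summed to 8438 and 7411 CPM in replicates 1 and 2 and to 4576 and 4828 CPM in replicates 3 and 4. Their part in the difference between sets was not tested. Summed to 1 value per set and group, no member was called, with 110 of 24773 genes called in all. Leaving out single libraries gave 13 to 20 called members, and 13 of the 18 stayed called each time. Top2a was lost without any of WT replicates 1 to 4 or RXRgKO replicates 3 or 4 with T3, Kif11 without the same libraries, Ccnb1 without WT replicates 2, 3 or 4 or RXRgKO replicates 3 or 4, Kif23 without WT replicate 1 or RXRgKO replicates 3 or 4, and Birc5 without WT replicate 3 or RXRgKO replicate 3, at adjusted p-values (edgeR) of up to 0.112.

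Without T3, 5 members were called between the labels in the fit of all 16 libraries, against 18 with T3. In a fit of only the groups compared the order was the other way, with 15 called without T3 and 10 with T3, all lower and mitotic. Of the 22 mitotic genes 5 were called lower in RXRgKO, none higher, with a median log2 fold change of -0.54, and 17 of the 22 had all RXRgKO libraries below all WT libraries. None of the 14 replication genes passed by edgeR, none had an unadjusted p under 0.05, DESeq2 and limma voom called none of them either, and their median was -0.11. Of all genes tested 11.3% were called, 6.17% higher and 5.16% lower, and 9.36% had all RXRgKO libraries below all WT libraries. DESeq2 called 7 members and limma voom 5.

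The 5 called genes were Ube2c, Cdc20, Bub1b, Cenpe and Cenpf. Ube2c had 24.2, 20.9, 25.3 and 18.5 CPM in untreated RXRgKO libraries, against 41.3, 37.7, 40.4 and 39.002 CPM in untreated WT libraries. Both groups were tight and clearly apart, at 1.78-fold (log2 fold change -0.83, SE 0.20, adjusted p = 0.00963, edgeR). Cdc20 had 30.2, 30.4, 33.0 and 24.5 CPM in untreated RXRgKO, against 53.3, 48.8, 48.9 and 48.5 CPM in untreated WT. Again no library of one label reached the other, and Cdc20 had a log2 fold change of -0.76 (SE 0.18, adjusted p = 0.0113, edgeR). Bub1b changed by -0.61 (SE 0.15, adjusted p = 0.0115, edgeR), Cenpe by -0.68 (SE 0.17, adjusted p = 0.0123, edgeR) and Cenpf by -0.59 (SE 0.15, adjusted p = 0.015, edgeR) on the log2 scale. Bub1 at -0.30 (SE 0.30, adjusted p = 0.644, edgeR) and Cenpa at -0.78 (SE 0.31, adjusted p = 0.13, edgeR) were not called.

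Several other mitotic genes were near those sizes with wider errors. Mki67 had 100.9, 128, 111 and 127 CPM in untreated RXRgKO libraries, against 227, 149, 167 and 152 CPM in untreated WT libraries. The groups did not overlap, yet the log2 fold change of -0.58 (SE 0.21, adjusted p = 0.0988, edgeR) did not pass. Ccnb1 was at -0.62 (SE 0.30, adjusted p = 0.25, edgeR), since RXRgKO replicates 1 and 3 (24.4 and 28.7 CPM) were closer to WT (30.0 to 33.2 CPM) than replicates 2 and 4 (16.3 and 14.3 CPM). Among the genes of S phase, Mcm2 was at -0.10 (SE 0.22, adjusted p = 0.847), Pcna at -0.14 (SE 0.25, adjusted p = 0.826), E2f1 at -0.09 (SE 0.19, adjusted p = 0.85) and Ccne1 at -0.29 (SE 0.14, adjusted p = 0.271), all from edgeR. Without WT replicate 1, or without RXRgKO replicate 1, the calls of Cenpe and Cenpf were lost and 3 members remained called, and Cenpf alone was lost without WT replicate 3 or RXRgKO replicate 3, at adjusted p-values (edgeR) of up to 0.0844. The count was 14 without the RXRgKO libraries lacking Xist (all lower, 12 of them mitotic), 12 without those with it (11 lower, all mitotic, and Gins2 higher) and 0 when counts were summed per set.

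T3 treatment of RXRgKO-labelled OPCs asked what the hormone changes within that label. Only 3 members were called, all mitotic and all lower with T3, against 2.81% of all genes called, 2.01% higher and 0.794% lower. The median log2 fold change was -0.54 over the 22 mitotic genes and -0.27 over the 14 replication genes, beside -0.00188 for all genes. All T3 libraries lay below all untreated libraries for 10 of 22 mitotic genes and for 1 of 14 replication genes, against 5.5% of all genes tested. No replication gene was called by edgeR in the fit without library sets, with 1 at an unadjusted p under 0.05. None was called by DESeq2 (7 mitotic members called) or limma voom (3 mitotic members called). With library set as a term in edgeR, which also treats libraries of a set as independent, 12 of the 14 replication genes were called lower. The share of all genes called in that fit is not given here.

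Cenpf had 35.6, 38.3, 28.5 and 28.7 CPM in RXRgKO libraries with T3, against 48.6, 68.2, 53.2 and 66.6 CPM in untreated RXRgKO libraries. The groups were apart, and within each group the libraries lay in pairs. Cenpf was 1.81-fold lower (log2 fold change -0.85, SE 0.15, adjusted p = 0.00398, edgeR). Kif23, a kinesin of the central spindle in cytokinesis, had 16.9, 15.7, 9.60 and 7.83 CPM with T3, against 22.3, 24.3, 24.4 and 20.2 CPM untreated. All 4 treated values were under the lowest untreated one, at a log2 fold change of -0.87 (SE 0.20, adjusted p = 0.027, edgeR). Cenpe had 20.4, 21.9, 18.2 and 16.5 CPM with T3, against 28.6, 37.9, 33.9 and 34.6 CPM untreated, at a log2 fold change of -0.81 (SE 0.17, adjusted p = 0.0137, edgeR). Mki67 was just outside the threshold at -0.71 (SE 0.21, adjusted p = 0.0889, edgeR), and Ccnb1 was at -0.49 (SE 0.31, adjusted p = 0.457, edgeR). Mcm2 was at -0.36 (SE 0.22, adjusted p = 0.437), Pcna at -0.15 (SE 0.25, adjusted p = 0.806), E2f1 at -0.31 (SE 0.19, adjusted p = 0.45) and Ccne1 at 0.04 (SE 0.15, adjusted p = 0.917), all from edgeR.

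The size of this T3 change was not the same in both RXRgKO sets. Between the 2 treated and 2 untreated RXRgKO libraries with Xist, the median log2 ratio of mean CPM was -0.97 over mitotic genes and -0.45 over replication genes. In the 2 and 2 libraries lacking Xist it was -0.26 over mitotic genes and -0.18 over replication genes. All 22 mitotic genes were below 0 in both sets. Kif23, for example, was at -1.35 in the set with Xist and -0.52 in the set lacking it. The count of called members was 20 without the libraries lacking Xist, 0 without those with Xist and 0 with counts summed per set. Leaving out single libraries gave 1 to 6 calls. Cenpf stayed called each time, Cenpe and Kif23 were lost without untreated replicate 2 or 4 or T3 replicate 3 or 4, Kif23 alone was lost without untreated replicate 1 or 3, at adjusted p-values (edgeR) of up to 0.0925, and 6 members were called without T3 replicate 1. The marker RNAs Xist and Ddx3y also differed between treated and untreated libraries within that set: Ddx3y had 22.1 and 20.7 CPM in the treated and 52.9 and 51.2 CPM in the untreated RXRgKO libraries with Xist. Of the mature oligodendrocyte markers, 5 of 8 were called higher with T3 in RXRgKO, none lower, at 3154 to 5106 CPM summed with T3, against 1688 to 2292 CPM untreated. Of the other marker lists, 1 of 8 neural stem and progenitor markers was called, lower with T3. The part of these markers in the T3 change of the mitotic genes was not tested.

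**Figure D4:**
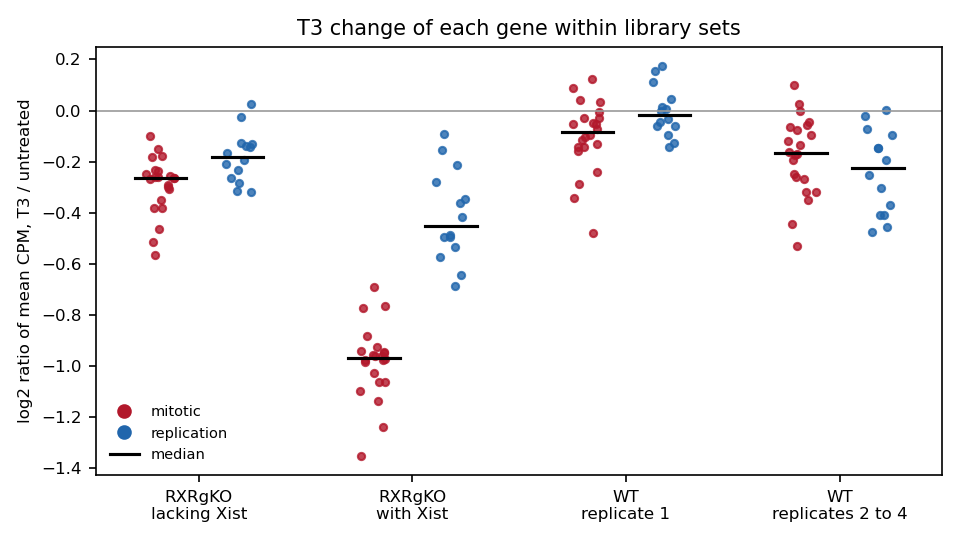
Each point is a gene, with its log2 ratio of mean CPM, T3 over untreated (y axis), within a library set (x axis); black lines are medians over 22 mitotic or 14 replication genes. The mitotic median is -0.97 in RXRgKO libraries with Xist, -0.26 in those lacking it, -0.08 in WT replicate 1 (1 library per treatment) and -0.17 in WT replicates 2 to 4.

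In WT-labelled OPCs the same 24 h of T3 gave no called member in the unblocked edgeR fit, against 8.44% of all genes called, 4.96% higher and 3.48% lower. Of the 39 members 37 were fitted below 0 and 2 above, with medians of -0.14 for mitotic and -0.16 for replication genes beside -0.03 for all genes tested. At an unadjusted p under 0.05 there were 2 members, E2f1 and Cenpf, and DESeq2 and limma voom called 0 each. With the replicate number as a block in the 8 WT libraries, 9 members were called lower by edgeR, with 5084 of 17319 genes called in all. Those 9 were the replication genes Cdc45, Mcm2 and Mcm6, the regulator E2f1, and the mitotic genes Aurkb, Cenpf, Kif23, Bub1b and Cenpe. Beyond replicate 1, it was not shown that the same number marks paired libraries. With counts summed per library set no member was called.

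E2f1 had 8.22, 4.71, 4.18 and 4.21 CPM in T3-treated WT libraries, against 8.70, 7.10, 6.82 and 6.92 CPM in untreated WT libraries. Each treated library was below the untreated library of the same number, and the groups overlapped only through replicate 1. The log2 fold change of E2f1 was -0.46 (SE 0.19, adjusted p = 0.163, edgeR without the block). Mcm2 had 57.9, 29.5, 26.5 and 26.8 CPM with T3, against 60.3, 38.2, 37.1 and 39.9 CPM untreated. Replicate 1 was again far above the rest in both groups, and Mcm2 was at -0.32 (SE 0.22, adjusted p = 0.437, edgeR without the block). Mki67 was at -0.21 (SE 0.21, adjusted p = 0.615), Ccnb1 at -0.10 (SE 0.30, adjusted p = 0.885), Pcna at -0.04 (SE 0.25, adjusted p = 0.95) and Ccne1 at 0.02 (SE 0.14, adjusted p = 0.957), all from edgeR without the block. With replicate 1 left out of both WT groups, 4 members were called lower (Mcm2, Cdt1, Cenpf and E2f1), and 4 were called without the treated replicate 1 alone. Mature oligodendrocyte markers moved with T3 in WT too, 5 of 8 called higher and none lower (19093 to 28867 CPM summed with T3, against 12863 to 17536 CPM untreated). Of 8 neuron markers 4 were lower (332 to 439 CPM with T3, against 378 to 721 CPM untreated), and of 8 neural stem and progenitor markers 1 was higher and 3 lower. Of 7 microglia markers 1 was called higher, while 6 were fitted below 0. Microglia markers were scarce in WT, at 1.98 to 2.65 CPM summed with T3, against 1.91 to 2.70 CPM untreated. WT replicate 1 had 15687 CPM of astrocyte markers with T3, against 8754 CPM untreated, and the other 3 had 5073 to 6101 CPM with T3, against 3455 to 3634 CPM untreated. The part of these markers in the members' values was not tested.

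Whether the T3 change differed between labels was tested by the interaction term. No member passed by edgeR, against 0.0658% of all genes called (0.0101% higher and 0.0557% lower), with 2 at an unadjusted p under 0.05 (Plk1 and Cenpe) and 0 called by DESeq2 and limma voom. All 22 mitotic genes were fitted below 0, that is, with the lower T3 log2 change in RXRgKO, at a median of -0.43, and the replication median was -0.11. The mitotic median depended on the library set: it was -0.16 without the RXRgKO libraries with Xist and -0.86 without those lacking it. Over all 39 members the median was -0.31, and -0.073 and -0.76 without those libraries in the same order. Plk1 had the largest value, a difference of -0.64 (SE 0.29, adjusted p = 0.921, edgeR). The same term was -0.50 (SE 0.30) for Mki67, -0.38 (SE 0.43) for Ccnb1, -0.05 (SE 0.31) for Mcm2, -0.11 (SE 0.36) for Pcna, 0.15 (SE 0.27) for E2f1 and 0.02 (SE 0.20) for Ccne1, each at an adjusted p of 1 (edgeR). Changed genes of 2-fold were recovered in 15% of cases when this term was tested on simulated counts. Ube2c was called without the RXRgKO libraries lacking Xist.

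Libraries of one group varied most in RXRgKO with T3. The median coefficient of variation of the mitotic genes was 35.7% there, against 16.2% in WT with T3, 13.4% in untreated RXRgKO and 13.3% in untreated WT; over all genes tested it was 22.4%, 21.4%, 19.1% and 19.3% in the same order of groups. In T3-treated RXRgKO, all 39 genes had a higher mean CPM over the 2 libraries lacking Xist than over the 2 with it. Rrm2, the limiting subunit of ribonucleotide reductase, had 100.2 and 98.8 CPM in replicates 1 and 2 and 34.7 and 33.0 CPM in replicates 3 and 4, a ratio of 2.94. Mcm4 had 44.2 and 45.8 CPM against 43.9 and 45.6 CPM. So replication genes spanned the whole range from no gap to the widest gap of the 39.

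In WT, replicate 1 differed from replicates 2 to 4 in a pattern that crossed functions. It was above the mean of the other 3 for 16 of 22 mitotic and 11 of 14 replication genes with T3, and for 18 of 22 and 10 of 14 untreated. Reads at multiple sites made up 39.6% of replicate 1 with T3, against 52.3% to 54.3% in replicates 2 to 4. Untreated, they made up 41.2% of replicate 1, against 53.6% to 55.0%. Mcm2 to Mcm6, Cdt1, Cdc6, Foxm1, Plk1 and Mki67 were higher in replicate 1 with and without T3, while Pcna, Tyms, Gins2, Ccne2, Cenpa and Cdk1 were higher in the other 3 with T3 and, for the same 6, without it. Cdt1 had 20.3 CPM in replicate 1 and 8.62 to 10.3 CPM in the other 3 with T3. Pcna had 50.5 CPM in replicate 1 and 74.7 to 83.9 CPM in the other 3 with T3. Replication genes therefore did not move as 1 block between WT libraries.

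**Figure D5:**
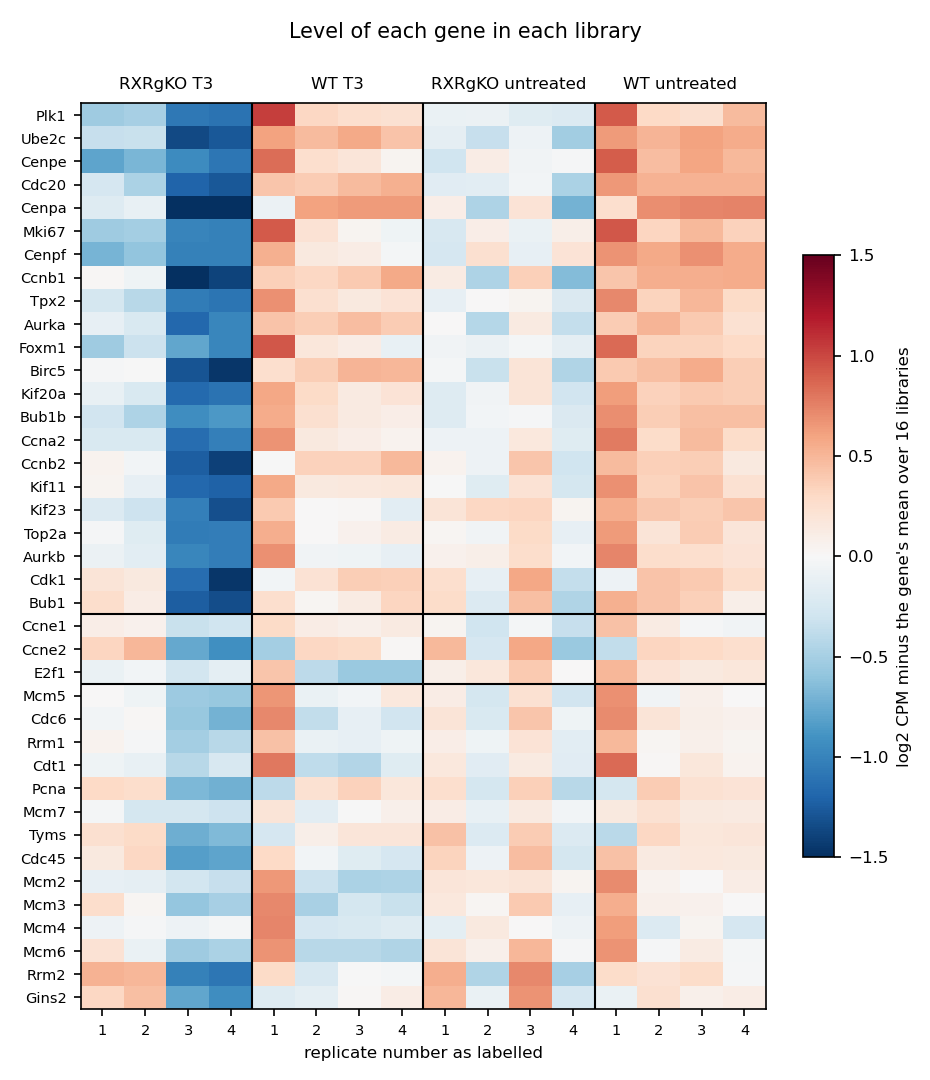
Rows are the 39 genes (22 mitotic, 3 regulators, 14 replication, from top) and columns the 16 libraries by group and replicate; colour is log2 CPM minus the mean of that gene over 16 libraries. Mitotic rows are blue in RXRgKO with T3 most of all in replicates 3 and 4, and WT replicate 1 stands out in red for Mcm2 to Mcm6.

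Wider lists of the same processes, which hold none of the 39, were counted in the same fit. These lists too were chosen with earlier results of these data known. Their counts beside the share over all genes, like those of the 39, describe the lists and do not test them. Of 46 other mitotic genes, 26 fell and none rose in RXRgKO against WT with T3 (median -0.75; 6.8% of all genes tested were called lower), led by Anln, a cytokinesis scaffold (-1.02, SE 0.16, adjusted p = 0.000326), Incenp and Cdca8 of the chromosomal passenger complex (-0.89, SE 0.14, adjusted p = 0.000374, and -0.99996, SE 0.16, adjusted p = 0.000379) and Espl1, the protease that separates sister chromatids (-1.09, SE 0.18, adjusted p = 0.0004), as log2 fold changes from edgeR. Without T3, 9 of the 46 fell (median -0.42; 5.16% of all genes were called lower), led by Cdc25b, a phosphatase that activates Cdk1 (-0.55, SE 0.11, adjusted p = 0.00258, edgeR), Kif18b, Espl1 and Ccnf. Of 37 other replication genes, 3 fell in RXRgKO against WT with T3 (Fen1, Asf1b and Pola2), near the 6.8% of all genes called lower. Their median was -0.22, and 9 of the 37 had an unadjusted p under 0.05 (edgeR). None of the 37 was called without T3 by edgeR, with 1 at an unadjusted p under 0.05 and a median of -0.09. Cdc25b was the single gene of the 46 called in WT with T3 (-0.68, SE 0.11, adjusted p = 0.000797, edgeR), and with T3 in RXRgKO Cdc25b (-0.46, SE 0.11, adjusted p = 0.0332, edgeR) and Nek2 were called, both lower.

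Of 16 transcription regulators of the cell cycle, 2 were lower in RXRgKO against WT with T3, where 6.8% of all genes were. E2f8, a repressor of E2F targets, was at -0.83 (SE 0.20, adjusted p = 0.00852, edgeR) and Tfdp2, a partner of E2F factors, at -0.42 (SE 0.10, adjusted p = 0.00891, edgeR). Tfdp2 was also lower without T3, at -0.35 (SE 0.10, adjusted p = 0.0315, edgeR), and E2f8 was lower with T3 in RXRgKO, at -0.85 (SE 0.20, adjusted p = 0.0301, edgeR). The counts of 16 replication-dependent histone genes are uncertain, since their copies are near-identical and their messages mostly lack a poly(A) tail. Without T3, 2 were called lower in RXRgKO (Hist2h3b and Hist1h1e), where 5.16% of all genes were. With T3 none was called between labels by edgeR, with 3 at an unadjusted p under 0.05. All 16 were fitted below 0 in RXRgKO, at a median of -0.50 with T3 and -0.43 without it.

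Markers of cell types moved with the labels beside these genes. Of all genes tested, 8.1% were called higher and 6.8% lower in RXRgKO with T3, and 6.17% higher and 5.16% lower without it. All 8 OPC markers passed the count filter and none was called between labels by edgeR with or without T3 (1 at an unadjusted p under 0.05 in each). Their summed level was 2231 to 4339 CPM in RXRgKO with T3, 3100.3 to 4681 CPM in WT with T3, 2591 to 4878 CPM in untreated RXRgKO and 3715 to 5343 CPM in untreated WT, so RNA of this marker list was present in every library. In untreated RXRgKO it was 2848 and 2591 CPM in replicates 1 and 3, which lacked Xist, and 4871 and 4878 CPM in replicates 2 and 4. The 8 mature oligodendrocyte markers summed to 3154 to 5106 CPM in RXRgKO with T3, against 19093 to 28867 CPM in WT with T3, and to 1688 to 2292 CPM in untreated RXRgKO, against 12863 to 17536 CPM in untreated WT. Of these 8, 7 were called lower in RXRgKO with T3, and the last was fitted higher (log2 fold change 0.76) without a call. All 8 were called lower without T3. Without T3, RXRgKO was called higher for 2 of 8 neuron, 6 of 8 mural and mesenchymal, 6 of 7 microglia, 3 of 4 endothelial and 2 of 8 neural stem and progenitor markers that passed the filter. With T3, 6 of 8 neuron markers were higher in RXRgKO (598 to 882 CPM summed, against 332 to 439 CPM in WT), as were 6 of 8 mural and mesenchymal markers (345 to 472 CPM, against 67.0 to 87.7 CPM in WT). Microglia markers (7 of 8 passed, 6 higher; 4.47 to 20.1 CPM, against 1.98 to 2.65 CPM in WT) and endothelial markers (4 of 6 passed, 3 higher; 21.4 to 33.4 CPM, against 8.70 to 11.0 CPM in WT) were scarce. The 8 neural stem and progenitor markers (4723 to 5129 CPM, against 4343 to 4682 CPM in WT) and the 8 astrocyte markers (4576 to 8438 CPM, against 5073 to 15687 CPM in WT) had no call between labels with T3 by edgeR, with 2 and 1 at an unadjusted p under 0.05. No marker of these lists was at 0 in every library of a group, and the part of any of these markers in the mitotic differences was not tested.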

How the data were processed

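The submitters' processing notes name HTSeq (0.6.1p1), STAR (2.5.3a) and bcl2fastq (2.17.1.14), with mm10 as the build; the strand setting of the counting is not given in the sources used here, and overlapping genes share that limit. Libraries were stranded and poly(A)-selected, per the labels. The deposited files hold raw counts per gene. The 5 HTSeq summary lines were left out: reads in no feature were 11.5% to 23.5% of a library and reads at multiple sites 39.6% to 55.0%. Identifiers were matched to GENCODE M21 (55154 of 55335).

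In R 4.3.3, edgeR 4.0.16 fitted all 16 libraries with 1 mean per group (TMM, filterByExpr, robust quasi-likelihood test), with p adjusted by Benjamini-Hochberg over 19764 genes and calls at adjusted p under 0.05. The SE is the log2 fold change over the square root of F. Alternatives were DESeq2 1.42.0, limma 3.58.1 (voom), other filters, a replicate block, library sets and leaving out libraries. Same-numbered WT libraries deviated together from their group means (correlations of 0.164 to 0.648 between T3 and untreated libraries). Of the T3 libraries, only replicate 1 resembled its own number most, and replicates 2, 3 and 4 resembled untreated replicates 4, 2 and 2. Since replicate 1 stood apart in both groups, such correlations cannot show that the numbers 2 to 4 pair libraries. Library sets are libraries of a group with a chi-square per gene under 3, over genes with summed counts of 20 to 500. The method was tested on simulated counts. The 39 genes, the other lists and the markers were chosen with earlier results of these data known. Called members were named with statistics, Mki67, Pcna, Mcm2, Ccnb1, E2f1 and Ccne1 in each comparison, and up to 4 called genes of each other list by smallest adjusted p.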

Additional observations from a re-analysis of the deposited data

Results flagged for a closer look

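Within groups of 4 libraries, a level was singled out where the gap from the highest or lowest library to its nearest neighbour exceeded the 95% critical value of Dixon's test. Of the 156 combinations of 39 genes and 4 groups, 33 did so, and chance gives about 1 in 20, or 7.8. WT replicate 1 was the library in 30 of the 33, 26 times as the highest. In WT with T3, replicate 1 was the highest library for Mcm2 (57.9), Mcm3 (55.4), Mcm4 (77.4), Mcm6 (72.5), Cdc6 (15.1), Cdt1 (20.3), Rrm1 (148), E2f1 (8.22), Ccna2 (106), Plk1 (24.8), Aurkb (30.7), Kif11 (87.7) and Tpx2 (88.4), in CPM, and the lowest for Cenpa (37.8 CPM). In untreated WT, it was the highest for Mcm2 (60.3), Mcm3 (49.2), Mcm5 (78.4), Mcm6 (72.6), Cdc45 (21.3), Cdc6 (15), Cdt1 (21.2), Rrm1 (153), E2f1 (8.7), Cdc20 (53.3), Aurkb (31.9), Kif20a (46.6) and Foxm1 (43.9), in CPM, and the lowest for Ccne2 (28.5), Ccnb1 (29.96) and Cenpa (48), in CPM. The other 3 were Mcm7 in replicate 1 of RXRgKO with T3 (68.3 CPM, highest), Mcm2 in replicate 4 of untreated RXRgKO (38.0 CPM, lowest) and Mcm7 in replicate 2 of untreated WT (81.8 CPM, highest). The split of RXRgKO with T3 into pairs of libraries cannot be seen by this rule, which needs a lone library.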

How the results depend on the processing

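The 3 results named per comparison were the number of the 39 members called, their median log2 fold change and the mitotic minus replication median. The mitotic minus replication median for T3 in WT, which carries no call, changed sign: it was 0.017, but -0.043 with counts summed per set and -0.0209 to 0.0477 leaving out single libraries. The other named results kept their sign, and of 546 values of called genes under the alternatives 447 stayed called, 99 fell short and none reversed. With the replicate number as a block in only the groups compared, 9 members were called for T3 in WT and 0 for T3 in RXRgKO. Between RXRgKO and WT, 9 were called with T3 and 7 without T3. For T3 in WT only replicate 1 resembled its own number most. Elsewhere the numbers did not pair the libraries (correlations of -0.697 to 0.6 for T3 in RXRgKO). With only the groups compared and no block, the members called were 1 for T3 in WT, and 10 and 15 for RXRgKO against WT with and without T3. DESeq2 called 7 for T3 in RXRgKO. With library set as a term, the members called were 10 and 36 for T3 in WT and RXRgKO, 32 and 20 for the labels with and without T3, and 6 for the interaction. Replication genes made up 5 of the 10, 12 of the 36, 8 of the 32, 2 of the 20 and 0 of the 6, all called lower. That fit, like the fit without the term, treats libraries of a set as independent. It called 8408 of 19764 genes between labels with T3. Summed per set, with few residual degrees of freedom, counts gave 0 for T3 in WT, T3 in RXRgKO, the interaction and the labels with and without T3, with a median of -0.47 without T3 and a mitotic minus replication median of -0.59 with T3. Without WT replicates 1, T3 gave 4 calls in WT and 9 in RXRgKO. Without the RXRgKO libraries lacking Xist, calls were 1 for T3 in WT, 20 for T3 in RXRgKO, 14 and 32 for the labels without and with T3, and 1 for the interaction. There the medians were -0.50 and -1.25 for the labels without and with T3 and -0.76 for the interaction, and the mitotic minus replication median was -0.51 for T3 in RXRgKO, -0.30 for the labels without T3 and -0.55 for the interaction. Without the RXRgKO libraries with Xist, calls were 1 for T3 in WT, 0 for T3 in RXRgKO and 12 for the labels without T3, and the mitotic minus replication median was -0.081 for T3 in RXRgKO, -0.59 for the labels with T3 and -0.16 for the interaction. The cause of these changes was not tested. Leaving out each library in turn gave 0 to 4 calls for T3 in WT, 1 to 6 for T3 in RXRgKO, 3 to 5 for the labels without T3, 13 to 20 with T3 and 0 for the interaction, and medians for T3 in WT of -0.286 to -0.0699. With no low-count filter the median of all genes moved by -0.20 for T3 in RXRgKO, 0.13 for the labels without T3 and -0.10 for T3 in WT. In simulated counts with T3, changes of 1.5-fold, 2-fold and 4-fold between labels were recovered in 14.6%, 53.3% and 100% of cases. Smaller changes of replication genes could therefore be missed with 4 libraries per group.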
